A study of Homo sapiens with 12 samples.

Results

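Baseline translational efficiency was measured in MDA-MB-231 cells, an established line of human triple-negative breast cancer, by setting ribosome footprints against RNA in the DMSO group. The members were the 6777 genes of the deposited tables, all of those listed, in 6 of the 12 libraries of the series: 3 RNA libraries and 3 footprint libraries of cells given DMSO, the solvent, for 4 h. The other 6 libraries came from cells given 10 nM AZD0095, an inhibitor of the lactate exporter MCT4, for the same time, and they are used below only side by side. All cells were grown in DMEM with fetal bovine serum, and no group carried a genetic change. Whether replicates came from separate dishes is not stated in the labels, so the tests weigh library-to-library spread that may be only technical. Of 9 mesenchymal marker genes, 8 were listed, with mean RNA levels of 52.6 to 2522 FPKM (fragment counts per length and depth), vimentin highest. Of 10 epithelial and luminal marker genes, CDH1, ESR1, PGR, ERBB3, GATA3 and FOXA1 were not listed, and the other 4 had 10.1 to 232 FPKM.

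Ribosome profiling sequences the stretch of mRNA that each ribosome shields from RNase, so footprints per kilobase of a gene depend on both the mRNA level and the density of ribosomes on it. The ratio of footprints to RNA, translational efficiency, places genes of unequal mRNA level on 1 scale. It counts bound ribosomes and does not tell fast from slow elongation. Vertebrate mRNAs for ribosomal proteins and elongation factors begin with a C and a run of pyrimidines at the 5′ end, the TOP motif, through which mTOR signalling and LARP1 control their loading with ribosomes. Other mRNAs are known to be held back by upstream reading frames, as for ATF4, or by an iron-responsive hairpin in the 5′ leader, as for ferritin.

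Because a run of pyrimidines at the start is the best known mark of a translationally controlled class, the annotated starts of some genes described below are shown first. Each sequence holds 5 bases before and 20 bases from the annotated transcription start, on the gene's own strand (RefSeq, GRCh38.p14), with the unbroken pyrimidine run from the start in capitals.
RPLP2: gccttCCTTTTCCTCCCTgtcgcca
RPS6: tggccCTCTTTTCCgtggcgcctcg
RPL12: tccggCCTCTCggctttcggctcgg
EEF1A1: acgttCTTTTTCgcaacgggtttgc
EEF2: gcgttCTCTTCCgccgtcgtcgccg
TPT1: tcggcCTTTTCCgcccgctcccccc
RPS4X: gccccaatttctacgcgcaccggaa
NDUFA1: gcggggcttgctgggaagagaggcg
POLR2L: cgggcagtctgggacgcgccgccgc
The first 6 start with a C followed by at least 4 pyrimidines (C or T), and the last 3, shown for contrast, do not. RPLP2 lies at chr11:809962-809986, RPS6 at chr9:19380217-19380241, RPL12 at chr9:127451387-127451411, EEF1A1 at chr6:73521013-73521037, EEF2 at chr19:3985444-3985468 and TPT1 at chr13:45341164-45341188. RPS4X lies at chrX:72277229-72277253, NDUFA1 at chrX:119871827-119871851 and POLR2L at chr11:842510-842534. The windows span the promoter's last bases and the first bases of exon 1. The 6 genes with the run ranged from among the best to among the worst translated: relative efficiencies (log2, defined below) were 3.18 for RPLP2, 0.01 for RPS6, −0.69 for EEF2, −0.86 for TPT1, −1.02 for EEF1A1 and −3.31 for RPL12. Among listed genes matched to an annotated start, 8.19% of 5655 had such a start, against 5.14% of all 27305 symbols in the RefSeq start table. Among the cytosolic ribosomal protein genes it was 44 of the 61 matched. Their median relative efficiency was 0.60 with the run and 0.65 for the 17 without it. Over all genes the medians were −0.07 with the run (463 genes) and −0.00 without it (5192 genes). The matched letters describe the annotated start, not the start used in these cells.

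Footprint and RNA levels followed each other over genes, with wide scatter around the common ratio. Across the 6777 genes Spearman's rho between mean RNA FPKM and mean footprint FPKM was 0.761, and Pearson's r on the log2 scale was 0.786. Genes are not independent replicates, so no p-value is attached. FPKM of the assays are each relative to their own total. The median gene had a footprint FPKM 2.43 times its RNA FPKM, a log2 ratio of 1.28, and this value was subtracted, so that 0 is the median gene. Every statement that a gene or group was higher or lower means relative to that median gene. Relative translational efficiency had an SD of 1.19 over genes. From the 10th to the 90th percentile it ran from −1.44 to 1.46, a 7.49-fold range, and its extremes were −6.78 (TUBB) and 9.81 (H3C3).

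**Figure D1:**
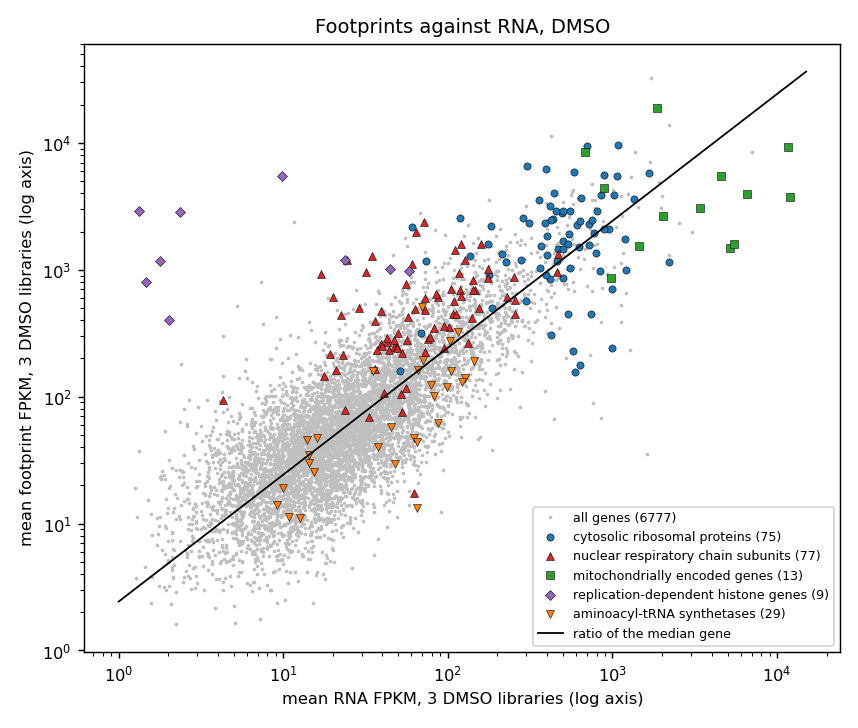
Mean footprint FPKM against mean RNA FPKM of 6777 genes in 3 DMSO libraries of each assay, both axes log, with 5 gene classes coloured and a line at the ratio of the median gene (2.43). Replication-dependent histone genes and most nuclear respiratory chain genes lie above the line; 10 of 13 mitochondrially encoded genes and most tRNA synthetases lie below it.

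Of the 6777 genes, 1347 had a translational efficiency above that of the median gene (19.9%) and 1250 below it (18.4%), 38.3% in all, at a limma adjusted p under 0.05. Among these, 1006 were more than 2-fold above the median gene and 1053 more than 2-fold below it. Without subtraction of the library medians the same test gave 3809 higher and 190 lower. Leaving out any 1 RNA library left 1403 to 1411 called genes, so counts of calls within gene classes also fell, and they are given below where they moved by more than 1.5 times. The RNA libraries were close to each other (correlations of log2 FPKM 0.992 to 0.996, median SD of a gene 0.09 on the log2 scale). Footprint libraries were less so (0.847 to 0.864, median SD 0.54). The depth implied by the steps in the footprint FPKM was 123859, 107087 and 192324 reads, with a median of 6, 5 and 10 reads per gene among genes whose reads could be recovered. Of those genes, 30.6%, 35.5% and 17.5% had 3 reads or fewer, so many moderate differences were not detectable at this depth. Depth was recovered only for footprint libraries, so that of the RNA libraries is not known.

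Of the 12 best translated genes above 10 FPKM in RNA, 7 encoded small proteins of the mitochondrial inner membrane. PET100, an assembly factor of cytochrome c oxidase (chr19:7629793-7631956), had 9.41, 14.0 and 11.4 FPKM in the RNA libraries and 1941, 2310 and 2877 in the footprint libraries. Its relative efficiency was 6.398 on the log2 scale (SE 0.23, limma adjusted p = 5.6e-06), a footprint-to-RNA ratio 84.3 times that of the median gene. ATP5F1E, the epsilon subunit of ATP synthase (chr20:59025475-59032335), had 14.9, 19.2 and 16.6 RNA FPKM and 1091, 404 and 1265 footprint FPKM, a relative efficiency of 4.49 (SE 0.43). Its second footprint library was low and rested on 8 implied reads, against 25 and 45 in the others, and all 3 lay above every RNA library relative to the median gene. ATP5ME, another ATP synthase subunit (chr4:672436-674276), reached 4.31 from 21.97, 26.6 and 25.1 RNA FPKM and 1486, 1368 and 696 footprint FPKM. POLR2L, a small shared subunit of the nuclear RNA polymerases (chr11:839721-842529), was the steadiest of these. It had 65.3, 69.8 and 68.4 RNA FPKM and 2980, 3006 and 2455 footprint FPKM, a relative efficiency of 4.09 (SE 0.12, limma adjusted p = 2.3e-06).

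The complex I subunit NDUFA1 stood at 3.78 and the complex I subunit NDUFA13 at 3.68. NDUFA4, first described with complex I and since assigned to cytochrome c oxidase, stood at 3.95. The complex III subunit UQCR11 was at 3.65, the mitochondrial RNA-binding protein SLIRP at 3.73 and the iron-sulfur protein CISD1 of the outer membrane at 3.73. Outside the mitochondrion, the histone gene H2AC6 had 26.1, 23.1 and 22.3 RNA FPKM and 1338, 962 and 1304 footprint FPKM, a relative efficiency of 4.38 (SE 0.19). RPS10, of the small ribosomal subunit (chr6:34417454-34426069), had only 53.5 to 64.3 RNA FPKM but 1878 to 2457 footprint FPKM, a relative efficiency of 3.90. RPS10 overlaps the readthrough gene RPS10-NUDT3, and the way the authors split reads between them is not stated in the labels.

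**Figure D2:**
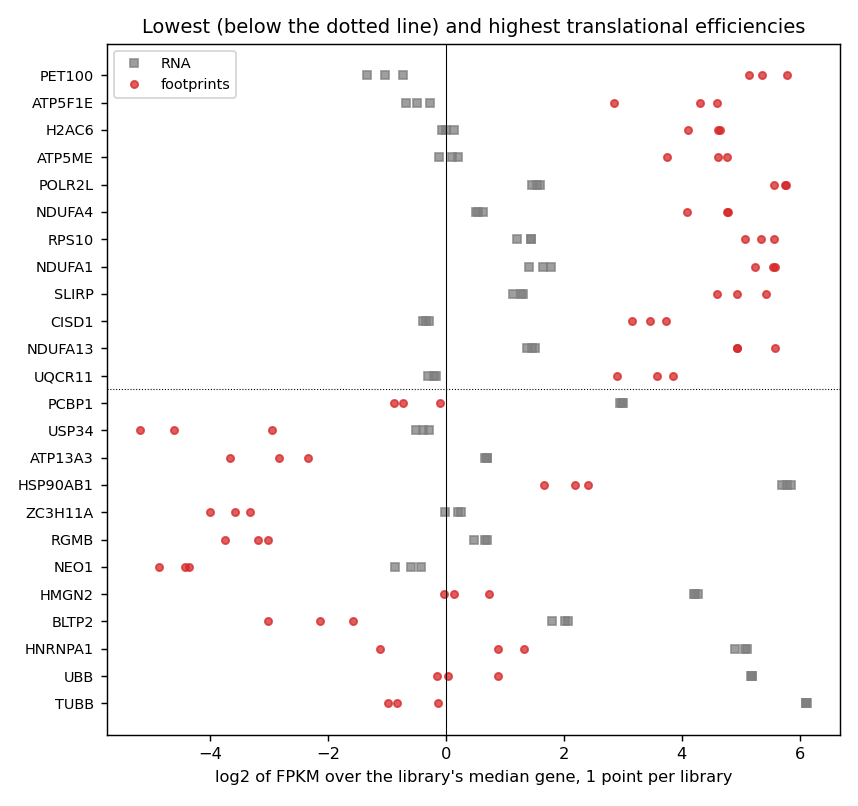
FPKM of 24 genes divided by the median gene of the same library, log2, with 1 point for each of the 3 RNA (squares) and 3 footprint (circles) libraries of the DMSO group. In the 12 genes above the dotted line all footprint points lie right of all RNA points, and in the 12 below it all lie left.

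The worst translated genes above 10 FPKM were a mixture of abundant mRNAs of small gene families and other mRNAs of low footprint level. TUBB, a beta-tubulin (chr6:30720352-30725422), had 1630, 1587 and 1625 RNA FPKM and 30.8, 28.5 and 47.6 footprint FPKM. Its relative efficiency was −6.78 (SE 0.22, limma adjusted p = 4.9e-06), 110-fold below the median gene. UBB, a polyubiquitin gene (chr17:16380779-16382745), had 838 to 863 RNA FPKM and 49.5, 57.3 and 95.7 footprint FPKM, a relative efficiency of −4.93. HNRNPA1, which encodes an abundant splicing repressor (chr12:54280726-54287087), had 693 to 815 RNA FPKM and 101, 140 and 24.04 footprint FPKM, a relative efficiency of −4.39 (SE 0.56), with the third footprint library well below the other two. HMGN2, a nucleosome-binding protein, stood at −3.99 and HSP90AB1, the constitutive cytosolic HSP90, at −3.73. HSP90AB1 had 1215 to 1362 RNA FPKM and 249.1, 178 and 276 footprint FPKM, from 68, 42 and 117 implied reads. These 5 genes share sequence with paralogs or with processed pseudogenes: RefSeq names 75 pseudogenes of HNRNPA1, 48 of HMGN2, 11 of TUBB and 5 of UBB. Reads of the short footprints that match several copies may have been dropped or split, so these values are uncertain, and the part of such copies was not tested.

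The other 7 of the 12 lowest, like HSP90AB1, had no pseudogene in RefSeq named by their symbol, P and a number. Copies named in another way were not counted, so such copies are not excluded. They were BLTP2 (−4.16), a lipid transfer protein; NEO1 (−3.98), the receptor neogenin; RGMB (−3.95), a ligand of neogenin; ZC3H11A (−3.83), an mRNA export factor; ATP13A3 (−3.60), a polyamine transporter; USP34 (−3.58), a deubiquitinase; and PCBP1 (−3.56), a poly(C)-binding protein. NEO1 had 13.1, 15.3 and 17.4 RNA FPKM and 1.90, 2.73 and 2.44 footprint FPKM. RGMB had 33.1, 36.5 and 37.7 RNA FPKM and 6.01, 6.95 and 3.87 footprint FPKM. The ligand and its receptor were thus both among the 12 lowest, each at a footprint level of few reads. PCBP1 had 183 to 185 RNA FPKM in all 3 libraries and 51.4, 34.0 and 28.4 footprint FPKM, from 7, 4 and 6 implied reads.

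Gene classes were described by 32 lists, 31 of them with listed members; no gene of the list of long noncoding and snoRNA host genes was in the tables. Since lists were drawn up with earlier results of these data known, their counts are descriptions.

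**Figure D3:**
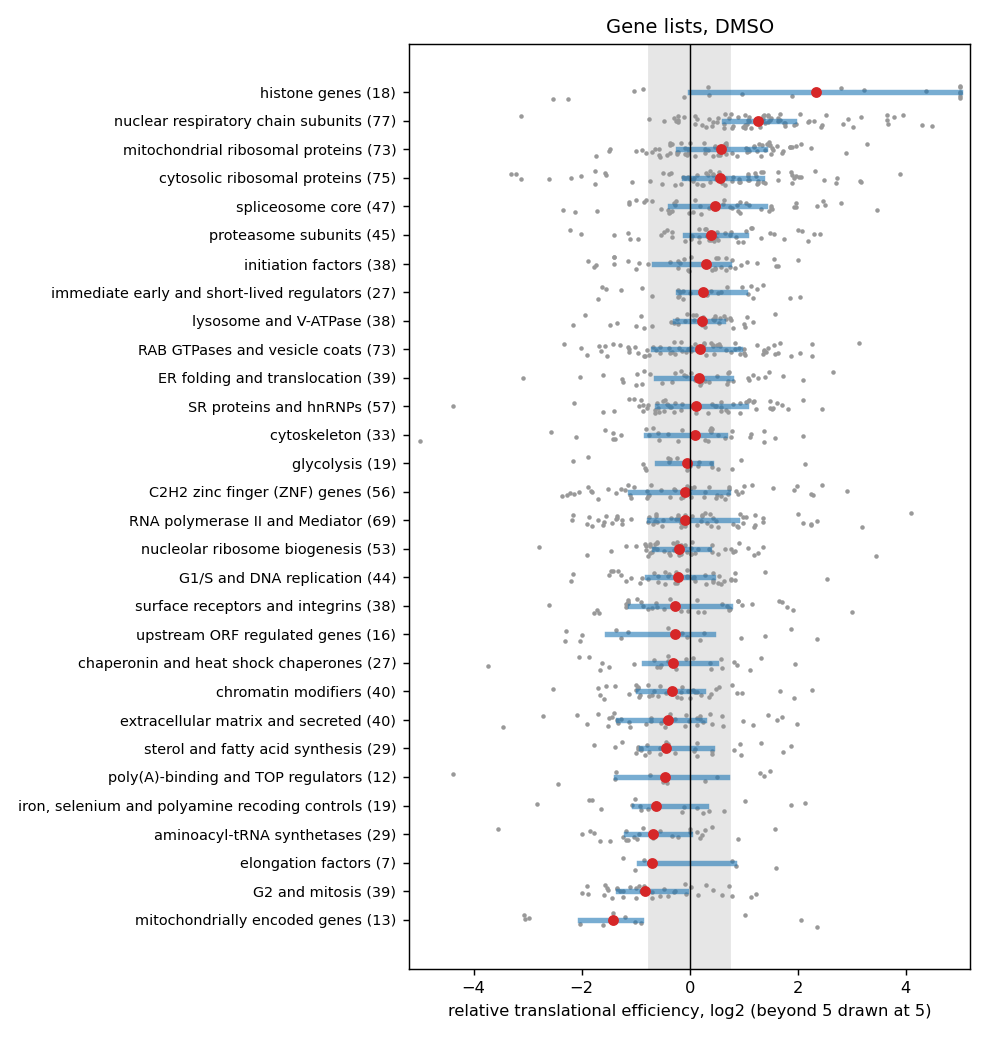
Relative translational efficiency (log2, median gene 0) of the members of 30 gene lists with at least 5 listed genes: grey points are genes, red points list medians, blue bars the interquartile range of a list and the grey band that of all genes (−0.75 to 0.75). Medians run from 2.35 for histone genes to −1.41 for mitochondrially encoded genes.

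The nuclear-encoded subunits of the respiratory chain and ATP synthase were the most uniformly well translated of the large lists. Of 77 listed subunits, 57 were higher, 3 lower and 17 not called, against 19.9% and 18.4% of all genes. The median was 1.27, a ratio 2.41 times that of the median gene, and in the 3 footprint libraries the list median was 1.38, 0.96 and 1.43. Complex I, which passes electrons from NADH to ubiquinone, had 27 of 35 genes higher and a median of 1.37. These genes were taken by symbol, so NDUFA4 is counted here and not with complex IV. Complex III had 7 of 9 higher and none lower (median 1.36), complex IV, cytochrome c oxidase, 9 of 11 and none lower (1.09), and ATP synthase 13 of 18 with 1 lower (0.93). Complex II, which also serves the citric acid cycle, differed in pattern: its median was 0.22 over 4 subunits, and it held both extremes of call. SDHA, its flavoprotein (chr5:218320-268746), had 59.05, 64.4 and 63.5 RNA FPKM and 12.9, 22.8 and 16.5 footprint FPKM, the lowest value of the chain at −3.12 (SE 0.28). SDHD, its membrane anchor, had 79.7 to 89.2 RNA FPKM and 550 to 688 footprint FPKM and stood at 1.64. All 4 complex II genes have named pseudogenes, SDHA 4 of them. Their values are therefore uncertain, and the part of shared reads was not tested. The 3 lower genes were SDHA, NDUFS1 (−0.76), the large iron-sulfur subunit of complex I, and ATP5F1C (−0.47), the central stalk of ATP synthase.

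These subunits took 1.55% ± 0.013 of the summed RNA FPKM and 3.35% ± 0.34 of the summed footprint FPKM (SD, n = 3 each). The shares did not overlap between assays (two-sided exact permutation p = 0.1, the smallest that 3 against 3 libraries allow). Most of the lists reached this p, also lists with medians near that of the median gene, such as glycolysis (−0.06). It therefore does not set a class apart, here or below. The 30 subunits without a named pseudogene had a median of 1.49. Most of the proteins are short. The 24 subunits whose length could be recovered had a median of 1.37, and 0.58 when each was set against the median gene of its own length class. After quantile normalization 49 were higher and 4 lower. Leaving out 1 RNA library left 45 to 48 higher and 1 lower.

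Cytosolic ribosomal proteins stood on both sides of the median, with more of them above it. Of 75 genes, 46 were higher and 14 lower, with a median of 0.55. Large-subunit genes gave 29 higher and 8 lower of 44 (median 0.63), and small-subunit genes 17 and 6 of 31 (0.48). RPLP2, a stalk protein of the large subunit, was high in every library, with 291, 311 and 301 RNA FPKM and 6232, 6415 and 7199 footprint FPKM (3.18, SE 0.11). RPS29 of the small subunit stood at 3.16. RPL12, which sits at the base of the same stalk, had 970, 991 and 1018 RNA FPKM and 208, 218 and 304 footprint FPKM (−3.31, SE 0.18). RPL29 (−3.21), RPS4X (−3.13), RPS27A, a fusion of ubiquitin with a ribosomal protein (−2.61), and the stalk protein RPLP0 (−2.20) were also lower. Genes for subunits of 1 particle thus ran from −3.31 to 3.90. RPS6 itself, the substrate of S6 kinase, had 587 to 657 RNA FPKM and 1245 to 1941 footprint FPKM and was at 0.01, not distinguishable from the median gene (limma adjusted p = 0.88).

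Nearly all ribosomal protein genes have processed pseudogenes, and the values differed by their number, with no steady order. The 4 genes with fewer than 5 named pseudogenes had a median of 0.63, the 38 with 5 to 19 had 0.93, and the 33 with 20 or more had 0.25. Over the 75 genes Spearman's rho between efficiency and the number of pseudogenes was −0.355. Single members are therefore uncertain, and the part of shared reads in the spread was not tested. The class as a whole depended on the scaling. Quantile normalization, which gives all libraries 1 distribution of values, left 31 higher and 24 lower with a median of 0.15. The 12 members with a recovered length had a median of −0.17 against genes of their own length class. The genes took 9.58% ± 0.078 of summed RNA FPKM and 13.1% ± 0.78 of summed footprint FPKM (SD, n = 3 each; exact permutation p = 0.1, the smallest possible). Mitochondrial ribosomal proteins, the separate set that serves the organelle, gave 32 higher and 8 lower of 73, with a median of 0.58. MRPS21 (3.29) and MRPL52 (2.90) led them and MRPS6 (−1.74) and MRPL37 (−1.49) were lowest. The 35 without a named pseudogene had a median of 1.06, and the 26 with a recovered length had 0.29, or 0.14 against genes of their own length class. Quantile normalization gave 27 higher and 14 lower, and leaving out 1 RNA library 20 to 21 higher and 2 to 3 lower.

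**Figure D4:**
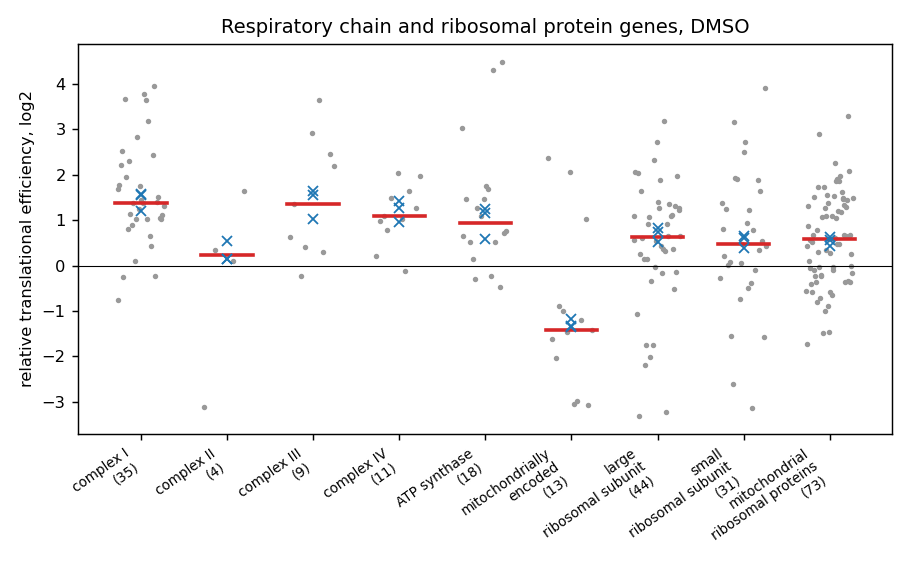
Relative translational efficiency (log2) of respiratory chain and ribosomal protein genes in DMSO cells, with a grey point for each gene, a red bar for the class median and blue crosses for the class median in each of the 3 footprint libraries. The medians of complexes I, III, IV and ATP synthase are 0.93 to 1.37, and the median of the mitochondrially encoded genes is −1.41.

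Elongation factors stood on both sides of the median gene, with 4 of 7 lower and 3 higher. The pyrimidine start was found in 4 of the 6 with a matched start. EEF1A1, which brings aminoacyl-tRNA to the ribosome, had 6649.9 to 7425 RNA FPKM and 7450, 7649 and 10200.4 footprint FPKM, a relative efficiency of −1.02 (SE 0.15, limma adjusted p = 0.0025). EEF1G stood at −1.24, TPT1, a protein bound to the EEF1 complex, at −0.86, and EEF2, the translocase, at −0.69. The exchange factor subunits EEF1B2 (0.78) and EEF1D (0.85) were higher, as was EIF5A (1.60), which helps ribosomes past proline stretches. The poly(A)-binding protein PABPC1, another mRNA with a TOP start, had 836 to 876 RNA FPKM and 359, 431 and 365 footprint FPKM and was among the lower genes at −2.43 (SE 0.11). RefSeq names 50 pseudogenes of EEF1A1, 14 of TPT1, 13 of PABPC1 and 8 each of EEF1G and EEF1D, and none of EEF2. Values of genes with such copies are uncertain, and the part of shared reads was not tested. Of 12 genes in the list of poly(A)-binding proteins and further mRNAs of the TOP class, 4 were higher, RACK1 (1.37) and FAU (1.49) among them, and 4 lower. Of 38 initiation factors, 12 were higher and 9 lower (median 0.30). EIF1AX, which scans for the start codon, was highest at 2.01, and EIF4G1 (−1.89) and EIF4G3 (−1.77), the scaffolds of the cap complex, were lowest. The initiation factors' median was −0.04 after quantile normalization and −0.07 for those without a pseudogene.

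The 13 mRNAs encoded by mitochondrial DNA, translated by ribosomes inside the organelle, split 3 to 10. The 10 lower genes included MT-ND2 (−3.08), MT-ATP6 (−3.05), MT-CO2 (−2.97), MT-CO3 (−2.03) and MT-CO1 (−1.61). MT-CO2 had 9443, 13344 and 13200 RNA FPKM and 4065, 3798 and 3282 footprint FPKM. MT-CO1 had 9486, 13221 and 12481 RNA FPKM and 11296, 9178 and 7424 footprint FPKM. In both genes the first RNA library was low and the first footprint library high, and the assays stayed apart relative to the median gene. The higher genes all encode complex I subunits, but so do MT-ND2 and MT-ND4 (−1.01) among the lower. MT-ND5 had 1568, 2194 and 1798 RNA FPKM and 21305, 21396 and 13881 footprint FPKM (2.07). MT-ND6 had 530, 814 and 689 RNA FPKM and 10785, 8578 and 6046 footprint FPKM (2.36). MT-ND4L stood at 1.03. MT-ND6 lies antisense to the end of MT-ND5 and MT-ND4L overlaps MT-ND4, and the labels do not state a strand rule for the counting, so these values are uncertain. The genes took 12.5% ± 1.95 of summed RNA FPKM and 5.01% ± 1.03 of summed footprint FPKM (SD, n = 3 each; exact permutation p = 0.1, the smallest possible). The lysate for footprints had been cleared of mitochondria and that for RNA had not, which cannot be told apart here from low ribosome density in the organelle.

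Histone genes held the highest ratios of the table. The 9 replication-dependent genes, whose mRNAs end in a stem-loop in place of a poly(A) tail, were all higher, with a median of 7.83. H3C3 (chr6:26045384-26045869) had 1.57, 1.26 and 1.16 RNA FPKM and 2686, 3164 and 2822 footprint FPKM, a relative efficiency of 9.81. H4C8 had 1.96 to 3.02 RNA FPKM and 2253 to 3219 footprint FPKM (8.94). The values formed 2 groups: H3C3, H4C8, H1-4, H2BC5, H2AC14 and H2BC11 at 6.35 to 9.81, and H2AC6, H2BC12 and H1-2 at 2.80 to 4.38. The 9 genes held 0.032% ± 0.0015 of summed RNA FPKM and 1.29% ± 0.092 of summed footprint FPKM, a ratio of 40.2 between assays. The labels of the RNA libraries name both total and poly(A) RNA, and the part of poly(A) selection in these values was not tested. Footprints of near-identical histone copies may also have been split. Replacement histones, whose mRNAs carry tails, stood lower: H3-3B was at 0.34 and H2AZ2 at −2.25.

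Protein turnover and folding genes differed between complexes. The catalytic core of the proteasome had 12 of 16 subunits higher and none lower, with a median of 1.01. PSMB9, of the immunoproteasome, stood at 2.41 and PSMB2 at 2.31, with 51.4, 52.6 and 53.4 RNA FPKM and 656, 662 and 575 footprint FPKM. The regulatory cap, which unfolds ubiquitinated proteins, had 3 higher, 3 lower and 14 not called of 20 (median 0.23, and −0.20 after quantile normalization, with 2 higher and 7 lower). Without 1 RNA library 1 to 2 of the cap genes were lower. PSMD4, a ubiquitin receptor of the cap, was at −2.01 with widely spread footprints of 12.6, 114 and 43.2 FPKM. Chaperones of the HSP70, HSP90 and chaperonin families had 6 of 14 lower and none higher (median −0.50), and 12 lower after quantile normalization, with a median of −0.98. HSPA8, the constitutive HSP70, had 2096 to 2352 RNA FPKM and 1115, 1180 and 1612 footprint FPKM (−2.05, SE 0.17). The small heat shock protein HSPB1 (1.95) and the HSP90 partner CDC37 (1.31) were higher. In the endoplasmic reticulum list 15 were higher and 10 lower of 39, with 6 to 7 lower without 1 RNA library. SSR4, of the translocon, led at 2.66, PDIA3, a disulfide isomerase, was lowest at −3.09, and the HSP70 of that compartment, HSPA5, was at −1.002.

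Aminoacyl-tRNA synthetases, which charge tRNAs, were more often lower than higher. Of 29, 14 were lower, 2 higher and 13 not called (median −0.67). Leaving out 1 RNA library left 6 to 7 lower and 1 higher. IARS2, the isoleucine enzyme of mitochondria, was lowest with 63.6 to 65.2 RNA FPKM and 5.26, 21.3 and 13.6 footprint FPKM (−3.55), from 2, 7 and 8 implied reads. EPRS1, which joins glutamate and proline, stood at −1.997. QARS1, which charges glutamine, was highest at 1.57. The 4 synthetases with a recovered length stood at 0.01 against genes of their own length class, compared with −0.55 for the same 4 before.

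Genes of the large matrix proteins were lower, and those of surface proteins fell on both sides. Of 13 collagens, laminins, fibronectin, thrombospondin and perlecan, 10 were lower and none higher (median −1.44), and 6 to 7 were lower without 1 RNA library. The 3 with a recovered length stood at −1.51, and at −0.36 against genes of their own length class. Fibronectin, FN1, had 36.4, 44.7 and 46.9 RNA FPKM and 8.05, 11.4 and 8.72 footprint FPKM, the lowest of the list at −3.46 (SE 0.30). THBS1, with 469 to 562 RNA FPKM and 735 to 838 footprint FPKM, was at −0.71. Among 18 secreted growth factors, cytokines and inhibitors, 3 were higher and 1 lower (median 0.13), and 1 and 0 without 1 RNA library. Over all 38 surface receptors and integrins 12 were higher and 14 lower, 6 to 7 of them without 1 RNA library. NOTCH2, a Notch receptor, was lowest at −2.61. The receptor kinases EGFR (−1.78), MET (−1.72) and AXL (−1.16) were lower, EGFR with 73.0 to 87.9 RNA FPKM and 46.4 to 74.2 footprint FPKM. TNFRSF12A, the receptor of TWEAK, was highest with 91.9 to 104 RNA FPKM and 1558 to 2181 footprint FPKM (3.02). The tetraspanins CD81 (1.92), CD151 (1.81) and CD9 (1.66) were also higher. CD44, the hyaluronan receptor typical of this line, was at 0.90.

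Genes of mitosis were more often below the median gene than above it. Of 39 genes of G2 and mitosis, 20 were lower and 3 higher (median −0.82). The condensin subunit NCAPD2 (−1.998) and the spindle protein DLGAP5 (−1.90) were lowest, and BIRC5, survivin, with 48.4 to 51.5 RNA FPKM and 248 to 355 footprint FPKM, was highest at 1.23. Of 44 genes of G1/S and DNA replication, 8 were lower and 4 higher (median −0.22), with the helicase subunit MCM4 at −2.21 and GINS2, which binds that helicase, at 2.54. Leaving out 1 RNA library left 7 to 9 of the mitotic genes lower, and 3 of the replication genes lower and 2 higher. Leaving out 1 footprint library left 7 to 14 of the replication genes lower and 3 to 8 higher. The 4 mitotic genes with a recovered length stood at −0.88, and at −0.10 against genes of their own length class. The difference between the lists was not tested.

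Several mRNAs with known translational control were lower, and others were not. ATF4, the stress transcription factor behind upstream reading frames (chr22:39520559-39522686), had 190, 206 and 203 RNA FPKM and 105, 121.9 and 66.9 footprint FPKM (−2.31, SE 0.22). AZIN1, an inhibitor of antizyme, was at −2.29 and ornithine decarboxylase, ODC1, at −2.04, with 310 to 330 RNA FPKM and 183 to 195 footprint FPKM. PPP1R15B, which recruits a phosphatase to EIF2, was at −1.28. Of the 16 listed genes with regulatory upstream reading frames, 7 were lower and 3 higher. The higher ones were UCP2, a mitochondrial carrier (2.36), CEBPB, a transcription factor (1.87), and EIF1, a start codon selection factor (0.95). AMD1, of polyamine synthesis, was at −0.06 with footprints of 151, 236 and 50.6 FPKM. OAZ1, the antizyme made by frameshifting, was at −1.82.

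The ferritin chains, which share the iron-responsive hairpin, differed. FTL, the light chain, had 1117 to 1145 RNA FPKM and 362, 436 and 355 footprint FPKM (−2.84, SE 0.11). FTH1, the heavy chain, had 697 to 753 RNA FPKM and 1814, 2925 and 1543 footprint FPKM (0.24, limma adjusted p = 0.37). RefSeq names 20 pseudogenes of FTL and 27 of FTH1, so both are uncertain. ACO1, the iron regulatory protein that binds the hairpin, was itself lower (−1.86). Selenoproteins, which read UGA as selenocysteine, ran from −1.64 for SEPHS2 to 2.13 for SELENOM. GPX4, which guards against lipid peroxides, was at 0.14, and TXNRD1, a thioredoxin reductase, at −1.01.

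Splicing factor genes fell on both sides of the median gene. Of 47 core spliceosome genes 20 were higher and 9 lower (median 0.46), and 13 to 15 and 4 without 1 RNA library. The Sm proteins SNRPD1 (3.47) and SNRPD2 (2.79) led, and the large proteins SF3B1 (−2.34) and PRPF8 (−2.13) were lowest. SR proteins, splicing activators, gave 8 higher and 1 lower of 12 (median 0.58), SRSF7 at 1.61 and SRSF3 at 0.48. After quantile normalization they gave 4 higher and 2 lower, with SRSF3 at −0.02, and without 1 RNA library 3 to 4 higher and 0 lower. Of 19 hnRNPs 5 were higher and 6 lower (median −0.36), with 3 lower without 1 RNA library and 5 to 11 without 1 footprint library; the 5 without a named pseudogene had a median of 0.93. In the nucleolus, NCL, nucleolin, had 388 to 480 RNA FPKM and 8593, 16014 and 9406 footprint FPKM (3.46), while most of its 53-gene ribosome biogenesis list was not called (7 higher, 9 lower, and 5 and 2 without 1 RNA library).

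The genes of lactate metabolism that frame the study fell on both sides of the median gene. SLC16A3, which encodes the MCT4 target of AZD0095 (chr17:82217934-82240086), had 87.2, 102 and 106 RNA FPKM and 376, 373 and 281 footprint FPKM, a relative efficiency of 0.52 (SE 0.16, limma adjusted p = 0.027). That call was lost without any 1 RNA library (limma adjusted p = 0.078 to 0.128) and after quantile normalization (0.14, limma adjusted p = 0.54). Its chaperone BSG had 269 to 311 RNA FPKM and 1496 to 1787 footprint FPKM (1.16), and the related transporter SLC16A7 was at 1.49. Of these 3 genes, all higher, 1 was still called when 1 RNA library was left out. LDHA, which makes lactate, had 1162 to 1268 RNA FPKM and 507, 735 and 728 footprint FPKM (−2.17, SE 0.17). LDHB, the other chain of the enzyme, had 430 to 482 RNA FPKM and 1084 to 1478 footprint FPKM (0.15, limma adjusted p = 0.36). GAPDH, with 65 named pseudogenes, was at −1.89. Over 19 glycolysis genes 4 were higher and 4 lower (median −0.06; 1 and 3 without 1 RNA library), ENO2 at 2.13 and ALDOA at 0.95 among the higher.

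Footprints were spread over genes much as RNA was. The 10 largest genes held 10.0% of summed footprint FPKM and 13.5% of summed RNA FPKM. S100A6, a calcium-binding protein singled out after its value was seen, had the highest footprint level, 36008, 28763 and 32592 FPKM, or 2.49% ± 0.24 of the sum, and a relative efficiency of 2.97. ACTB, beta-actin, had 2156 to 2232 RNA FPKM and 11812, 14306 and 15339.7 footprint FPKM (1.37). VIM, vimentin, the filament protein of mesenchymal cells, had similar RNA levels, 2492 to 2539 FPKM, but 2204, 2318 and 2513 footprint FPKM (−1.38, SE 0.10). Of short-lived regulators, MYC was at 0.40 (limma adjusted p = 0.042), CCND1 at 0.53 (limma adjusted p = 0.16) and JUN at −0.20 (limma adjusted p = 0.60). The footprints per RNA of MYC, CCND1 and JUN were thus within 2-fold of the median gene, but other such regulators were not. Of 27 listed immediate early and short-lived regulators, 7 were higher and 3 lower (median 0.25). Without 1 RNA library 3 to 4 were higher and 1 lower. NFKBIA (1.86) and BTG1 (1.36) were among the higher, and KLF10 (−1.70) and DUSP5 (−1.63) among the lower.

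Across classes the values moved with the length behind the footprint FPKM. For 1082 genes (15.97%) the steps of the footprint FPKM gave whole reads and an implied length, median 1017.5 bases. They are those of 1118 genes with whole reads whose implied length was 1 short of a multiple of 3. The 44 genes under 300 bases had a median of 1.56, with 27 higher and 2 lower. The medians were 0.73 for 300 to 600 bases (221 genes), 0.23 for 600 to 1200 (372), −0.56 for 1200 to 2400 (303) and −1.15 above 2400 bases (142), where 74 were lower and 2 higher. Spearman's rho between length and relative efficiency was −0.600 over the 1082 genes, and −0.595, −0.491 and −0.544 with each footprint library on its own. Length was related to footprint level (rho −0.636) and less to RNA level (−0.306). UTP20, a ribosome biogenesis factor, had the longest implied length, 8387 bases, and stood at −2.785. The length by which the authors divided the RNA reads was not recovered, and the part of unequal gene models of the assays in this relation was not tested. The fewest implied reads of a gene in any DMSO footprint library were 1, and 1 read gives a higher FPKM in a shorter gene. Short genes with few ribosomes can therefore be missing, which bears on these medians and on rho. The part of this floor was not tested either.

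**Figure D5:**
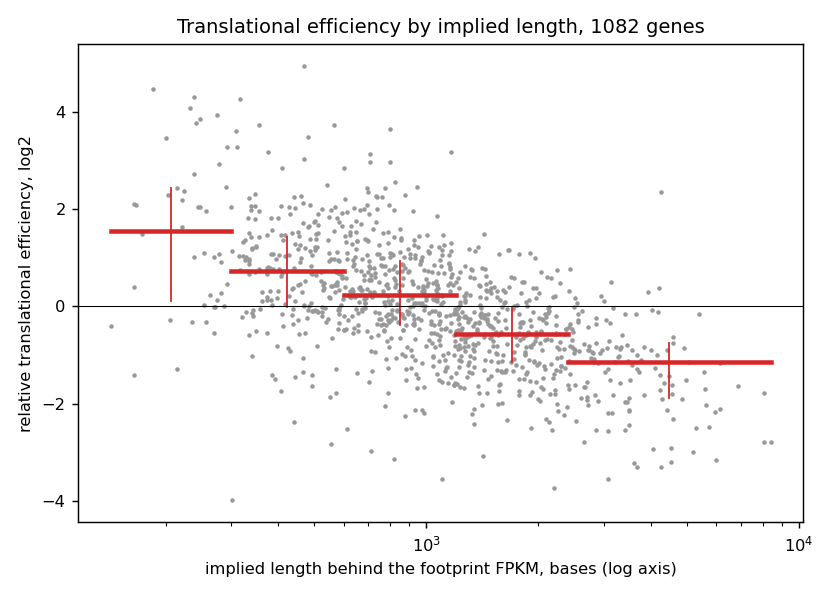
Relative translational efficiency (log2) against the implied length behind the footprint FPKM (bases, log axis) of 1082 genes; red bars are medians of 5 length classes and thin lines their interquartile ranges. The class medians step down from 1.56 to −1.15.

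By RNA level the medians differed little except at the low end. The 411 genes under 5 RNA FPKM had a median of 0.83, with 108 higher and 15 lower. All listed genes exceed 1 FPKM in every library, so a gene with little RNA and few ribosomes is missing, and the lowest efficiency seen in that class was −2.13. From 10 FPKM upward the medians of 5 classes of RNA level lay between −0.17 and −0.01.

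The DMSO values were found again in cells given AZD0095, whose 6 libraries share none with the DMSO comparison. There 1385 genes were higher (20.4%) and 1352 lower (19.9%). Of the genes called in DMSO cells, 1309 of 1347 higher and 1205 of 1250 lower genes had the same sign, and Pearson's r between both sets of values was 0.849 over 6777 genes. PET100 was at 6.197 under AZD0095, POLR2L at 3.92, TUBB at −6.11, ATF4 at −2.41 and SLC16A3 at 0.54. The respiratory chain list had a median of 1.17, cytosolic ribosomal proteins 0.36 and mitochondrially encoded genes −2.01. In limma's test of the difference between treatments 0 of 6777 genes (0%) passed, 593 had an unadjusted p under 0.05, and the lowest adjusted p was 0.133. This does not show that translation is alike under both treatments.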

How the data were processed

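RNA-seq and ribosome profiling libraries were used from the DMSO group (3 each), with the AZD0095 libraries side by side. Per the labels' protocols, cells for footprints were treated with cycloheximide, and RNase I was applied after nuclei and mitochondria had been taken out of the lysate. The authors deposited FPKM values, 1 table per library; the genome build was hg38 and the tools included STAR, Bowtie2 and fastp, per the submitters' processing notes. Which read counter, annotation and formula they used is not given in the sources used here. Of 6785 rows, 8 repeats were removed. Of 6777 genes, 6729 symbols matched the RefSeq table (GRCh38.p14) that gave positions, starts and pseudogene names (parent symbol, P and a number).

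Relative translational efficiency is log2 of mean footprint over mean RNA FPKM, minus its median. It was tested with limma 3.58.1 (R 4.3.3) on log2 FPKM with a pseudocount of 0, each library centred on its median, variance trend, two-sided, Benjamini-Hochberg over all genes, called at 0.05. SEs are from that fit, whose means of log2 values can differ slightly from the log2 of means. Replicate numbers were not used, since RNA and footprint libraries of the same number deviated from their group means with correlations of −0.03, 0.05 and −0.06. Depths and lengths were recovered from the FPKM steps. Both this step and the limma fit were tested on simulated data. The step found the depth of all 6 libraries, and 99.6% of recovered genes had the right reads. The fit called 24% of genes shifted by 1 log2 unit, 68% of those shifted by 2 log2 units and 0.58% of unshifted genes. Most shifts of 2-fold were thus missed there. The share of wrong calls among the genes called in the DMSO libraries was not tested. Members and lists were chosen with earlier results of these data known. Genes were named by rule: the 12 highest and 12 lowest called genes of at least 10 RNA FPKM with all footprint libraries on 1 side, the 2 highest and 2 lowest called genes of each list with 5 or more members, and a set of landmark genes. Other genes named were chosen after their values were seen. Values of some single genes are not reported here.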

Additional observations from a re-analysis of the deposited data

How the results depend on the processing

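Without centring, 3999 genes were called, 3809 higher and 190 lower. Genes named by rule that changed side without centring were AMD1 (0.96), EEF1A1 (0.25), EEF1G (0.026), EEF2 (0.57), HSPA5 (0.27), JUN (1.01), MT-ND4 (0.25), NDUFS1 (0.53), RPL3 (0.76), THBS1 (0.57), TPT1 (0.42) and TXNRD1 (0.20). Genes named outside that rule are not in this list. AXL is 1 of them, with a mean footprint level (421 FPKM) above its RNA level (387 FPKM). Quantile normalization called 1408 higher and 1471 lower and, of the genes named by rule, turned RPS6 (−0.45) and SRSF3 (−0.017). It also turned the medians of initiation factors (−0.037), proteasome subunits (−0.017), the proteasome cap (−0.20) and the list of cofilin, profilin, thymosins and light chains (−0.047). Leaving out 1 library gave 1403 to 3135 called genes, 848 to 1608 higher and 551 to 1581 lower, fewest without any 1 RNA library (1403 to 1411). Without RNA replicate 3, 63.2% of the higher and 44.2% of the lower calls remained. With the replicate number as a block, 2448 genes were called, 1258 higher and 1190 lower; 87.6% of the higher and 84.4% of the lower calls were the same genes. The pairing check gave no sign of shared replicates.

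Pseudocounts of 1 and 5, filters at 10 and 30 FPKM, a 10% trimmed mean, centring outside the lists, assay weights, the footprint spread alone and no trend moved the count by less than 1.5 times. They turned none of the genes named by rule. With the filter at 30 FPKM, which leaves genes under it untested, 75.9% of the higher and 54.3% of the lower calls remained. Added after seeing the data, restriction to genes without a named pseudogene called 1873 genes and turned the medians of initiation factors (−0.066) and hnRNPs (0.94). Against genes of the same length class, also added, the medians of cytosolic ribosomal proteins (−0.17), the small subunit (−0.51) and nucleolar ribosome biogenesis (0.33) turned; the cause was not tested. Planned classes by protein length, hydrophobic stretches and zinc finger motifs were not run, since no protein sequences were used here. Footprint depth, a median of 5 to 10 reads per gene, limits the values of single genes.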

Other observations

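Classes not described above were mostly near the median gene. Counts of lower genes without 1 RNA library are given in brackets where they moved by more than 1.5 times. Of 73 RAB GTPases and vesicle coat genes, 21 were higher and 11 lower [7] (median 0.19). RAB21, an endosomal GTPase, had 4.35 to 5.04 RNA FPKM and 79.9, 132 and 88.3 footprint FPKM (3.13), RAB11B, of recycling endosomes, was at 2.26, and the coat proteins SEC24A (−2.33) and SEC16A (−2.02) were lowest. Of 38 lysosome and V-ATPase genes, 8 were higher, led by the proton pump subunit ATP6V1G1 (1.57), and 6 lower, among them the lysosomal hydrolase HEXA (−1.94). Of 29 genes of sterol and fatty acid synthesis, 5 were higher and 7 lower [1 to 2] (median −0.43). DHCR7, of the last step to cholesterol, was at 1.88, and SREBF2, a transcription factor of sterol synthesis genes, was lowest at −1.78.

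Genes of RNA polymerase II and Mediator were spread about as widely as all genes, with interquartile ranges of −0.75 to 0.87 and −0.75 to 0.75. Of 69 genes of RNA polymerase II, its general factors and Mediator, 15 were higher (21.7%) and 17 lower [4 to 5] (24.6%). Over all genes the shares were 19.9% and 18.4%, and the list's median was −0.09. The small subunit POLR2L was highest of the list at 4.09. The Mediator subunit MED13 (−2.18) was lowest, followed by the largest polymerase subunit, POLR2A (−2.17). POLR2A had 58.3 to 64.8 RNA FPKM and 23.1, 45.6 and 32.4 footprint FPKM. Of 40 chromatin modifiers, 5 were higher and 7 lower [2] (median −0.33). Of these, the methyltransferase gene KMT2B was at 2.27 in DMSO and 0.14 in AZD0095 libraries, and SUZ12, of the Polycomb complex, at −2.54 and −1.81. Among 56 zinc finger genes named ZNF, 8 were higher and 13 lower [6 to 8], with 3 to 6 higher without 1 RNA library; the list's median was −0.09, −0.36 as the median of fitted differences and 0.23 after quantile normalization. ZNF567 stood at 2.92 and ZNF639 at −2.37. Leaving out 1 footprint library gave 13 to 18 lower RAB and coat genes, 9 to 13 lower chromatin modifiers and 9 to 15 higher lysosome and V-ATPase genes.

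NOTCH2 was at −2.61 in DMSO and 0.44 in AZD0095 libraries, a difference that limma did not call (adjusted p = 0.47). The AZD0095 value rests on 1 footprint library, with 448 FPKM against 73.6 and 65.5 in the others, over 50.9 to 63.2 RNA FPKM.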
